A study of Macaca fascicularis with 16 samples.

Results

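The genes described here encode matrix metalloproteinases, ADAM proteins, ADAMTS proteases, the ADAMTS-like proteins, cathepsins and the tissue inhibitors of metalloproteinases (TIMPs). They were taken by symbol, as every probe set whose single annotated gene symbol was MMP, ADAM, ADAMTS, ADAMTSL, TIMP or CTS followed by its number or letter, and the symbol rule itself used no measured value. This gave 129 of the 52865 probe sets on the array, which stood for 68 of the 14132 genes with a single symbol: 22 MMP, 3 TIMP, 9 ADAM, 17 ADAMTS, 4 ADAMTSL and 13 cathepsin genes. Of these, 48 genes with 86 probe sets had signal above 60.2, the median of the table, on at least 4 of the 16 arrays and were tested.

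RNA from mammary tissue of 16 ovariectomized, postmenopausal female cynomolgus macaques (Macaca fascicularis) was hybridized to Affymetrix rhesus macaque arrays, with 1 array for each animal. The 4 groups of 4 animals received no treatment (control), 0.042 mg/kg of conjugated equine estrogens (CEE), 0.042 mg/kg of CEE with 0.167 mg/kg of medroxyprogesterone acetate (CEE+MPA), or 0.2 mg/kg of tibolone, a synthetic steroid that titles and source names call OD14-HIGH. CEE supplies estrogens without a progestogen, MPA is a synthetic progestogen, and all 4 groups, the controls included, lacked ovaries. Because the whole tissue was assayed, fewer cells of a type and less RNA per cell cannot be told apart.

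MMPs are zinc proteases that cut collagens, laminins and other matrix proteins, and most are secreted as inactive proenzymes. Many, but not all, ADAMs are membrane proteases that release growth factors and receptors from the cell surface. ADAMTS proteases are secreted and cut proteoglycans or procollagens, and ADAMTS-like proteins resemble them but lack the protease domain. TIMPs bind and block MMPs and some ADAM and ADAMTS proteases. Most cathepsins digest proteins in lysosomes and some act outside the cell. In the mammary gland these enzymes are known for their parts in duct growth, in involution after lactation and in remodelling of the stroma around the epithelium.

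Between 48.6% and 51.8% of all probe sets lay above the table median on each array. Markers of mammary luminal epithelium were tested for 9 of 11 genes (not CDH1 or ESR1) and their summed signal was 25651 to 52880. Skeletal muscle markers (8 of 12 tested, not MYH7, TTN, ACTA1 or NEB) had a list mean above 1 on 4 arrays, where a list mean is the average log2 value of its genes after subtracting the mean of all arrays. These were control replicate 1 (2.93), CEE+MPA replicate 1 (1.49) and tibolone replicates 2 (2.73) and 3 (1.76). The dap spike-in control separated a low set of 6 arrays, 2 each of control, CEE and CEE+MPA (log2 values of 6.97 to 7.28), from a high set of 10 (7.61 to 8.42), which took in every tibolone array and the other 2 arrays of control, CEE and CEE+MPA. The log2 ratio of 3' to 5' GAPDH probe sets, a sign of RNA quality, moved with these sets. It was 0.035 to 0.263 on the 6 low-set arrays and 0.581 to 0.923 on 9 of the 10 high-set arrays, the exception being tibolone replicate 2 at 0.114. The labels give no batch, and the part of RNA quality in the results read by set was not tested.

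The steroid treatments were compared with no treatment and with each other in 6 comparisons. In each, limma was fitted to log2(signal + 16) for all tested probe sets, and a gene was called at a Benjamini-Hochberg adjusted p under 0.05. With CEE+MPA, 5 of the 48 member genes fell relative to control (ADAMTSL4, TIMP3, CTSD, TIMP2 and ADAMTS1) and 0 rose, where 4.95% of all 10455 tested genes fell and 2.74% rose. Against CEE+MPA, tibolone gave 4 members that were higher (ADAMTSL4, TIMP3, ADAMTS1 and ADAMTS10) and 0 that were lower, where 3.98% of all genes were higher and 3.37% lower. These comparisons share the CEE+MPA arrays, so their member lists are not separate evidence. At an unadjusted limma p under 0.05 all 17 members past it were lower with CEE+MPA than in controls (14.7% of all genes lower, 13.6% higher and 28.3% either way), and all 17 past it were higher with tibolone than with CEE+MPA (15% higher, 13% lower and 28% either way).

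No member passed in the other comparisons. Against control, 0 of 48 passed with CEE, where 0.0383% of all genes rose and 0.0191% fell, and 0 of 48 passed with tibolone, where 0.00956% rose and 0% fell. At an unadjusted limma p under 0.05 the members past it numbered 15 for CEE (14.1% of all genes) and 3 for tibolone (4.83% of all genes). Between CEE+MPA and CEE, 0 members passed (0.0287% of all genes lower and 0% higher), with 4 at an unadjusted p under 0.05 (7.58% of all genes). Between tibolone and CEE, 0 members passed (0% of all genes), with 11 at an unadjusted p under 0.05 (13% of all genes).

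More members lay below control than above it with CEE and with CEE+MPA. With CEE, 33 of 48 log2 fold changes against control were below 0 and the median was -0.17, where 47.9% of all genes were below 0 with a median of 0.01. With CEE+MPA, 35 of 48 were below 0 and the median was -0.37, where 48.6% of all genes were below 0 with a median of 0.01. With tibolone, 20 of 48 were below 0 and the median was 0.04, where 47.6% of all genes were below 0 with a median of 0.01. Every CEE+MPA array was lower than every control array for 11 members (10.5% of all genes) and every array was higher for 0 (9.05% of all genes). The 3 comparisons with control share its 4 arrays.

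Every CEE array was below every control for 7 members, ADAM19, ADAMTSL4, CTSK, CTSL, MMP14, MMP2 and TIMP2 (5.21% of all genes), and above for ADAMTS8 alone (5.28% of all genes). Tibolone and control did not overlap for ADAMTS8, which was higher (1.81% of all genes), and for 0 members in the other direction (1.3% of all genes). Tibolone exceeded CEE on every array for ADAMTSL4, CTSD, MMP14 and TIMP3 (2.87% of all genes) and lay below it for CTSO (3.02% of all genes), with 11 of 48 fold changes below 0 and a median of 0.26 (48.3% of all genes below 0). Tibolone exceeded CEE+MPA on every array for 10 members (7.78% of all genes) and lay below it for 0 (7.03% of all genes), with 10 of 48 fold changes below 0 and a median of 0.39 (48.5% of all genes below 0). CEE+MPA exceeded CEE on every array for MMP14 (2.44% of all genes) and lay below it for 0 members (3.18% of all genes), with 35 of 48 fold changes below 0 and a median of -0.19 (49.3% of all genes below 0). Over all genes the medians of these comparisons lay between 0.00 and 0.01.

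**Figure D1:**
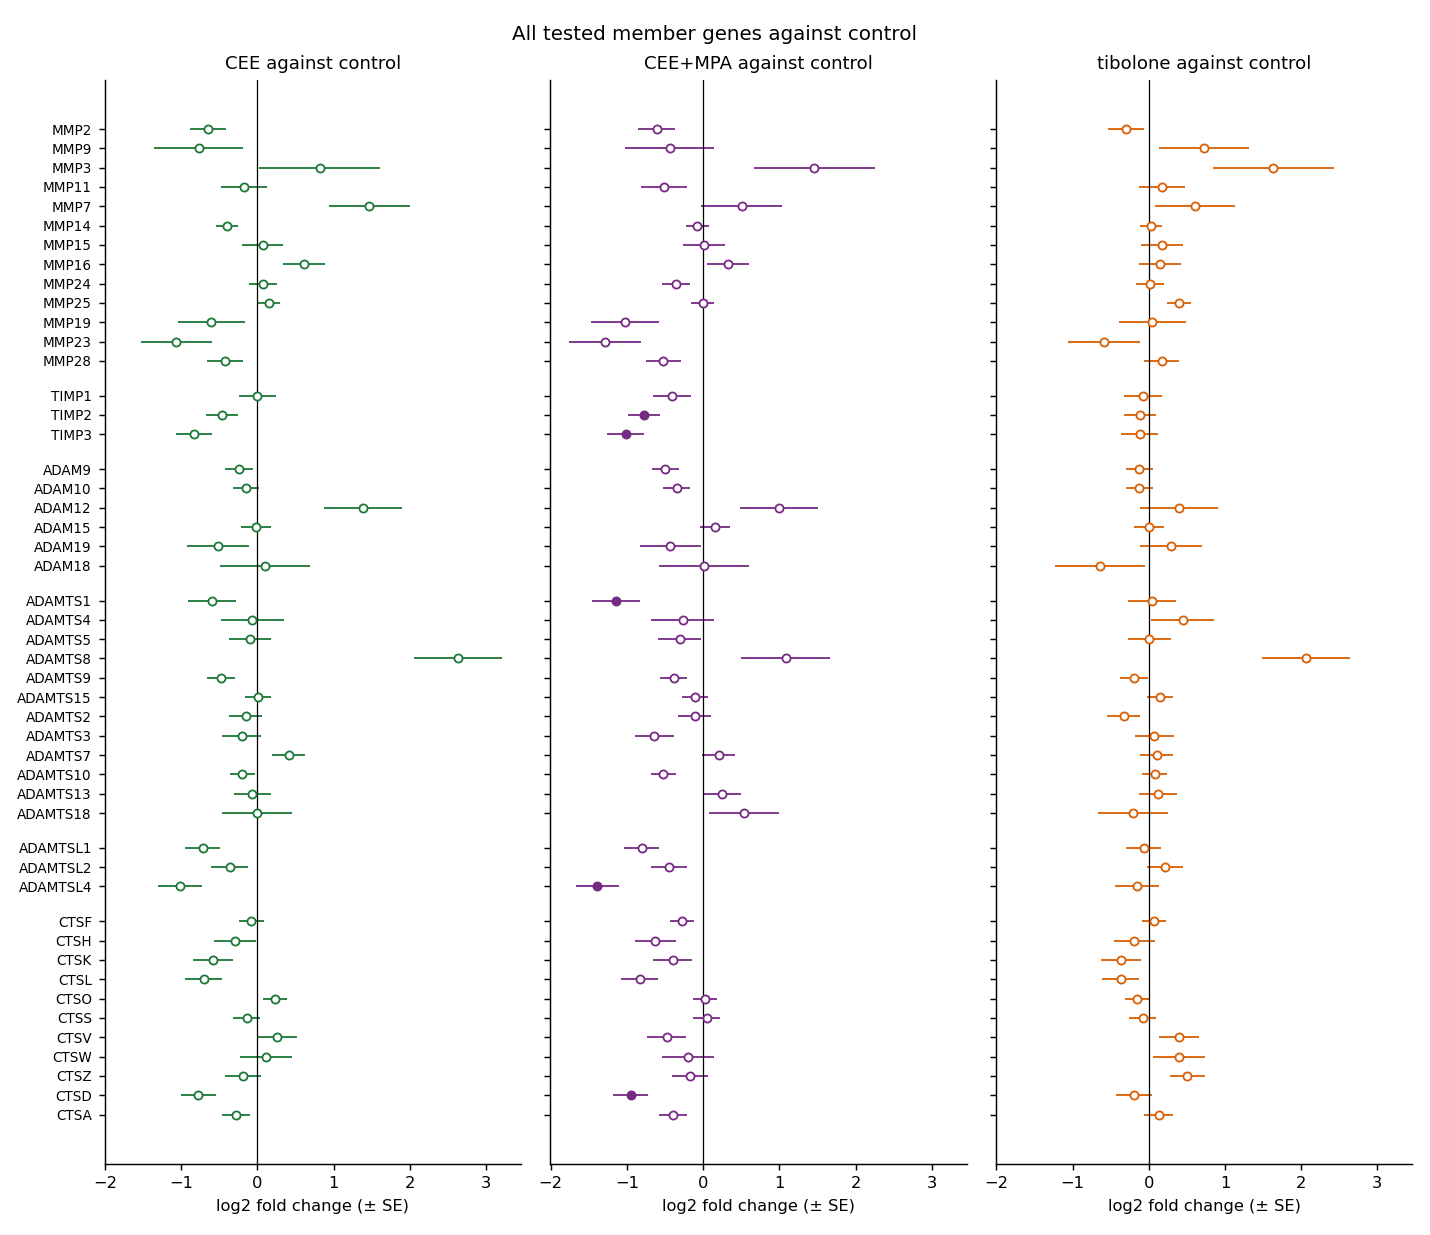
Log2 fold change (± SE, limma) of the 48 tested member genes with CEE, CEE+MPA and tibolone against control, grouped by family, with filled circles for genes past the threshold. The 5 filled circles, ADAMTSL4, TIMP3, CTSD, TIMP2 and ADAMTS1, all lie in the CEE+MPA panel and left of 0, and ADAMTS8 lies farthest to the right in the CEE and tibolone panels.

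Of the 3 TIMP genes, 2 fell with CEE+MPA and TIMP1 did not pass. TIMP3 encodes an inhibitor that binds to the matrix and blocks ADAM and ADAMTS proteases as well as MMPs. Its signal was 555, 699, 750.2 and 344 in controls, 295, 249, 333 and 375 with CEE, 323, 219, 238 and 316 with CEE+MPA and 447, 626, 675 and 379 with tibolone. All 4 CEE+MPA arrays lay below all 4 controls, whereas CEE replicate 4 lay above control replicate 4 and the tibolone arrays spread over the control range. The log2 fold change with CEE+MPA was -1.02 ± 0.24 (limma, adjusted p = 0.025), and with CEE it was -0.83 ± 0.24, which did not pass (adjusted p = 0.21). Tibolone stood 0.90 ± 0.24 above CEE+MPA (adjusted p = 0.0404), with no overlap of the arrays.

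TIMP2, which inhibits MMPs and also takes part in activating proMMP2, had signals of 445, 341, 494 and 464 in controls, 292, 297, 321 and 331 with CEE, 233, 229.7, 212 and 321 with CEE+MPA and 248, 553, 507 and 359 with tibolone. All CEE and all CEE+MPA arrays were below all controls, while tibolone replicate 1 lay with the CEE+MPA arrays and tibolone replicates 2 and 3 above every control. The fold change with CEE+MPA was -0.77 ± 0.21 (limma, adjusted p = 0.041), and that with CEE was -0.46 ± 0.21 (adjusted p = 0.39). Its second tested probe set gave -0.41 ± 0.22 with CEE+MPA and did not pass (adjusted p = 0.267). TIMP1, a broad inhibitor of secreted MMPs, ranged from 1907 to 5083 over the 16 arrays, with fold changes of 0.00 ± 0.25, -0.41 ± 0.25 and -0.08 ± 0.25 for CEE, CEE+MPA and tibolone against control (adjusted p = 0.999, 0.34 and 0.983). Its 3 tested probe sets gave 0.00 to 0.42 with CEE. They differed in sign with CEE+MPA (-0.41 to 0.18) and with tibolone (-0.25 to 0.22), and none passed.

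The TIMP calls depended on single arrays. TIMP3 with CEE+MPA did not pass in 5 of 16 fits that each lacked 1 array, which were control replicates 1, 2 and 3 and CEE+MPA replicates 2 and 3 (highest adjusted p = 0.0917), and TIMP2 did not pass in 10 of 16 such fits, those without any 1 control array, CEE replicate 2, 3 or 4, or CEE+MPA replicate 1, 2 or 3 (highest adjusted p = 0.11). Within the low and the high spike-in set the TIMP3 difference was -0.65 ± 0.33 and -1.39 ± 0.33 (adjusted p = 0.561 and 0.0372), and that of TIMP2 was -0.77 ± 0.30 and -0.78 ± 0.30 (adjusted p = 0.462 and 0.142). The TIMP3 difference between tibolone and CEE+MPA was lost without control replicate 1, any 1 CEE+MPA array, tibolone replicate 2 or tibolone replicate 3 (highest adjusted p = 0.119).

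All 3 tested ADAMTS-like genes had fold changes below 0 with CEE and with CEE+MPA, and 1 of 3 passed with CEE+MPA. ADAMTSL4, a matrix protein that binds fibrillin microfibrils, had signals of 456, 802, 621 and 387 in controls, 268, 300.2, 294 and 199.5 with CEE, 223, 149, 160.0 and 289 with CEE+MPA and 377, 737, 649.7 and 313 with tibolone. Every CEE and every CEE+MPA array lay below every control, and every tibolone array lay above every CEE and CEE+MPA array. The fold change was -1.39 ± 0.29 with CEE+MPA (limma, adjusted p = 0.0144) and -1.01 ± 0.29 with CEE, which did not pass (adjusted p = 0.204). Tibolone differed from control by -0.15 ± 0.29 (adjusted p = 0.962) and from CEE+MPA by 1.23 ± 0.29 (adjusted p = 0.0264). The difference with CEE+MPA missed the threshold only without control replicate 2 among the 16 fits that left out 1 array (adjusted p = 0.0615). Against tibolone it was lost without CEE+MPA replicate 2 or 3 or tibolone replicate 2 or 3 (highest adjusted p = 0.0897). Within the low and high spike-in sets the difference from control was -0.91 ± 0.40 and -1.87 ± 0.40 (adjusted p = 0.518 and 0.0285).

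ADAMTSL1, a secreted matrix protein without protease activity, was measured by 3 tested probe sets. The probe set with the highest mean had signals of 158, 139, 203 and 166 in controls, 139, 77.5, 125 and 55.8 with CEE, 96.1, 83.8, 64.1 and 114 with CEE+MPA and 131, 197, 133 and 176 with tibolone. Every CEE+MPA array was below every control, but the fold change of -0.80 ± 0.23 narrowly missed the threshold (limma, adjusted p = 0.0502). The other 2 probe sets fell with CEE+MPA, at -1.29 (adjusted p = 0.00442) and -0.95 (adjusted p = 0.0202), and were higher with tibolone than with CEE+MPA by 1.01 and 0.93 (adjusted p = 0.0192 and 0.0249). The first of these read 82.9, 83, 117 and 102 in controls and 39.9, 14.1, 38.8 and 31 with CEE+MPA, so that its arrays did not overlap either. All of these CEE+MPA values lay below the table median used as the filter, so the size of its differences from CEE+MPA is uncertain. ADAMTSL2, which binds latent TGF-beta binding proteins, ranged from 61.9 to 130.1 in controls and from 50.01 to 70.4 with CEE+MPA (-0.45 ± 0.24, adjusted p = 0.277), and every tibolone array exceeded every CEE+MPA array (0.66 ± 0.24, adjusted p = 0.107).

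Among 12 tested ADAMTS protease genes, ADAMTS1 fell with CEE+MPA and ADAMTS1 and ADAMTS10 were higher with tibolone than with CEE+MPA. ADAMTS1 cuts the proteoglycans aggrecan and versican and is known as a progesterone-regulated gene of the ovulating ovary. Its signal was 1531, 1280.2, 1115 and 1561 in controls, 1019.6, 895, 572 and 1240.5 with CEE, 757, 656, 545 and 504 with CEE+MPA and 1254, 2644, 1638 and 698 with tibolone. The CEE+MPA arrays lay below every control and overlapped those of CEE, and tibolone replicate 2 was the highest of all arrays while tibolone replicate 4 fell among the CEE+MPA values. The fold change was -1.14 ± 0.32 with CEE+MPA against control (limma, adjusted p = 0.0438) and 1.18 ± 0.32 for tibolone against CEE+MPA (adjusted p = 0.0405). With CEE it was -0.59 ± 0.32 (adjusted p = 0.466). The second probe set passed in the same 2 comparisons, at -1.09 (adjusted p = 0.0293) and 0.97 (adjusted p = 0.0448).

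Both ADAMTS1 calls were close to the threshold. That against control was lost in 11 of the 16 fits that left out 1 array, namely any control, any CEE+MPA array, CEE replicate 1 or 2, or tibolone replicate 1 (highest adjusted p = 0.108). Within the low and high spike-in sets the difference was -1.07 ± 0.50 and -1.21 ± 0.50 (adjusted p = 0.534 and 0.16). That against CEE+MPA was lost in 9 of 16, without control replicate 1, CEE replicate 2, any CEE+MPA array, or tibolone replicates 1, 2 or 3 (highest adjusted p = 0.12).

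ADAMTS10, which associates with fibrillin microfibrils, had signals of 947, 813, 597 and 576 in controls, 643, 563, 771 and 537 with CEE, 434, 534, 474 and 548 with CEE+MPA and 717, 779, 789 and 751 with tibolone. The 4 tibolone arrays clustered between the upper and lower pairs of controls and lay above all CEE+MPA arrays, which were in turn below all controls. Tibolone exceeded CEE+MPA by 0.60 ± 0.16 (limma, adjusted p = 0.0434), while CEE+MPA differed from control by -0.52 ± 0.16 and did not pass (adjusted p = 0.0678). The other 2 probe sets of ADAMTS10 differed between tibolone and CEE+MPA by 0.19 and 0.68 and did not pass (adjusted p = 0.592 and 0.0945). The call was lost in 9 of 16 fits that left out 1 array, those without CEE replicate 1 or 2, any CEE+MPA array, or tibolone replicate 1, 2 or 3 (highest adjusted p = 0.113).

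All 4 tibolone arrays lie in the high spike-in set, so tibolone and CEE+MPA could be compared within that set alone, on 2 CEE+MPA arrays. The 3 members called there were ADAMTSL4, ADAMTS8 and CTSW, all higher with tibolone, among 564 of all probe sets, and the last 2 were not called over all arrays. Within the set ADAMTSL4 differed by 1.57 (limma, adjusted p = 0.0425), TIMP3 by 1.13 (adjusted p = 0.0616), ADAMTS1 by 1.20 (adjusted p = 0.137) and ADAMTS10 by 0.58 (adjusted p = 0.0836). With the set as a block in the fit of all arrays, ADAMTSL4 still passed at 1.33 (adjusted p = 0.0412), and TIMP3 at 0.87, ADAMTS1 at 1.20 and ADAMTS10 at 0.48 did not (adjusted p = 0.0859, 0.0761 and 0.101). The 5 members that fell with CEE+MPA against control kept their call with that block. Calls over all probe sets moved too. With the block they numbered 2373 for CEE+MPA against control (1819 without it) and 735 for tibolone against CEE+MPA (1820 without it).

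**Figure D2:**
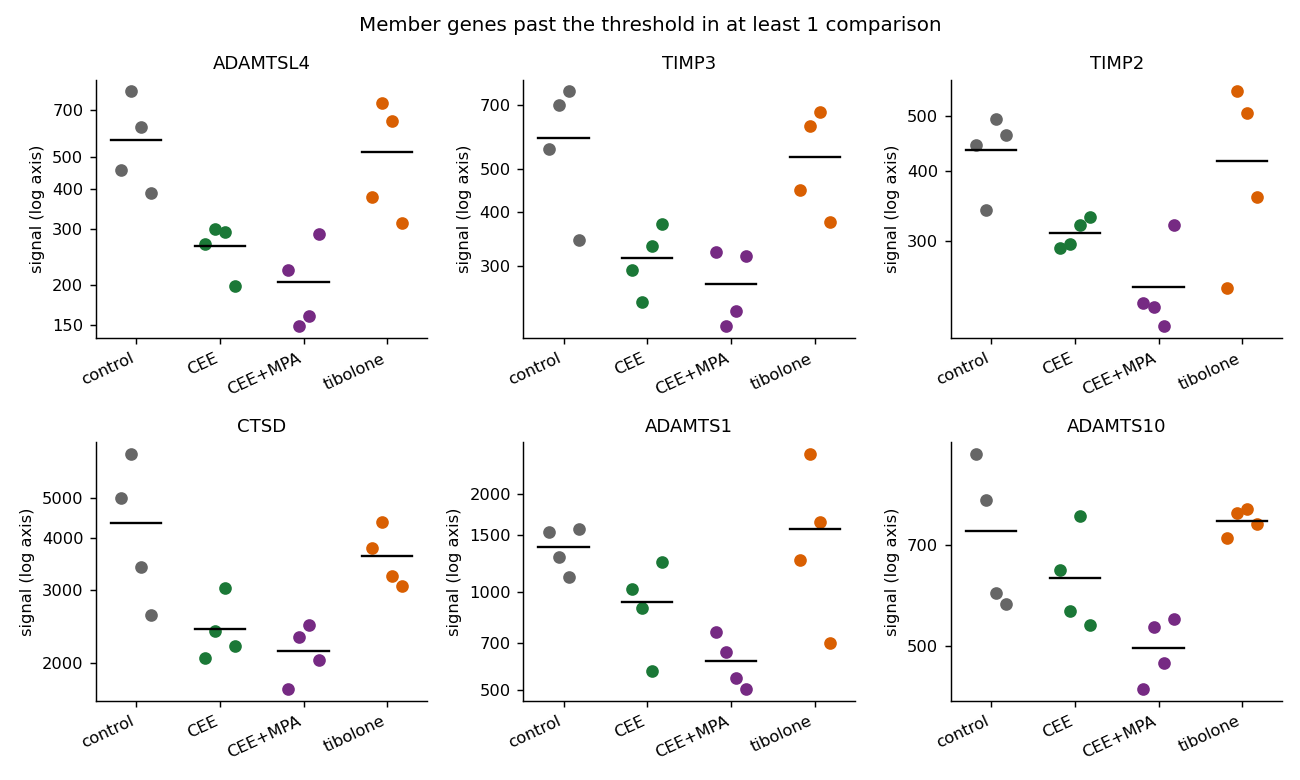
Signal (log axis) of the 6 member genes that passed the threshold in at least 1 comparison, with 1 point for each animal and a line at the arithmetic mean of the 4 animals of a group. CEE+MPA has the lowest mean in all 6 panels, and the tibolone and control points overlap in each.

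ADAMTS8, which is known as an inhibitor of blood vessel growth, had the largest positive fold change of the 48 members with CEE and with tibolone, without passing the threshold. Its signal was 81, 129, 66.6 and 75.2 in controls, 1135, 466, 693 and 382 with CEE, 504, 71.5, 82.6 and 459 with CEE+MPA and 847, 609.8, 211 and 245 with tibolone. Every CEE array and every tibolone array lay above every control, as did CEE+MPA replicates 1 and 4, whereas CEE+MPA replicates 2 and 3 lay at control level. The fold change was 2.63 ± 0.58 with CEE (limma, adjusted p = 0.0993), 2.06 ± 0.58 with tibolone (adjusted p = 0.662, unadjusted p = 0.00267) and 1.08 ± 0.58 with CEE+MPA (adjusted p = 0.271). CEE+MPA differed from CEE by -1.55 ± 0.58 (adjusted p = 0.526). Left out in turn, each of the 16 arrays gave 2.34 to 2.85 for CEE, with adjusted p from 0.0719 to 0.238.

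The second ADAMTS8 probe set, at lower signal, gave 22.6, 13.8, 9.75 and 17.9 in controls, 215, 93.5, 93.4 and 66.5 with CEE, 104, 10.04, 21.3 and 99.97 with CEE+MPA and 104, 82, 26.4 and 39.8 with tibolone. It divided the CEE+MPA animals in the same way, and its fold changes were 1.96 ± 0.47 with CEE and 1.20 ± 0.47 with tibolone (adjusted p = 0.137 and 0.901). Every control, CEE+MPA replicates 2 and 3 and tibolone replicates 3 and 4 lay below the table median used as the filter. This probe set thus passed the filter through treated arrays alone, and the size of its fold changes against control is uncertain. CEE+MPA replicates 1 and 4 belong to the low spike-in set and replicates 2 and 3 to the high set. The difference between CEE+MPA and control was 2.52 ± 0.58 within the low set and -0.35 ± 0.58 within the high set (adjusted p = 0.259 and 0.755), whereas that of CEE was 3.10 ± 0.58 and 2.16 ± 0.58 (adjusted p = 0.286 and 0.223). Whether the difference between the sets exceeds the spread of animals was not tested. ADAMTS8 with CEE passed the threshold when limma was fitted to the CEE and control arrays alone and when arrays were weighted (adjusted p = 0.0205 and 0.0428).

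**Figure D3:**
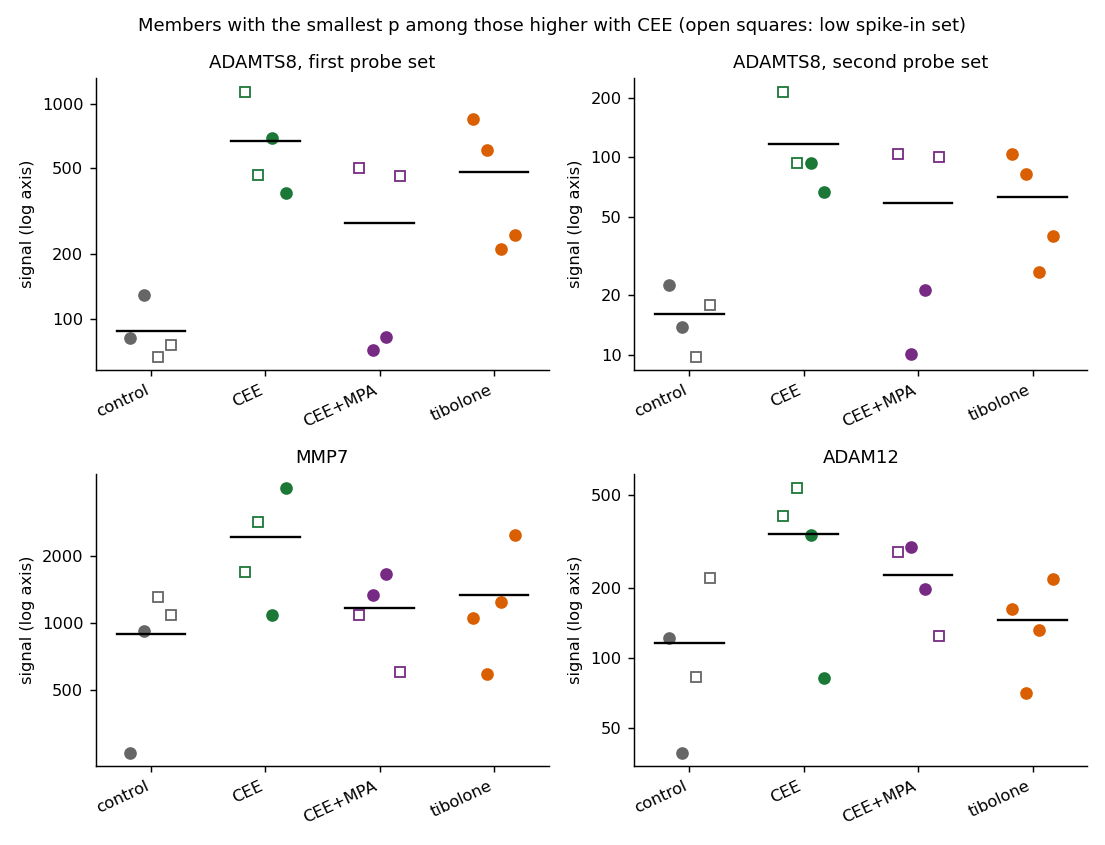
Signal (log axis) by animal for both ADAMTS8 probe sets and for MMP7 and ADAM12, with open squares for arrays of the low spike-in set, filled circles for the high set and lines at group means. CEE and tibolone points of ADAMTS8 lie above all controls, and the CEE+MPA points divide into a high and a low pair that match the spike-in sets.

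The other ADAMTS genes stayed short of the threshold in every comparison. ADAMTS5 and ADAMTS4, aggrecan-cutting proteases, gave -0.31 ± 0.28 and -0.27 ± 0.42 with CEE+MPA (adjusted p = 0.542 and 0.747). The procollagen-processing protease ADAMTS2 gave -0.33 ± 0.22 with tibolone (adjusted p = 0.913), but its 3 probe sets differed in sign, from -0.33 to 0.30. ADAMTS3, of the same subfamily, gave -0.64 ± 0.26 with CEE+MPA and 0.71 ± 0.26 for tibolone over CEE+MPA (adjusted p = 0.148 and 0.106). ADAMTS9, a versican-cutting protease, had 4 tested probe sets that differed in sign with CEE+MPA, from -0.51 to 0.37. ADAMTS15, whose gene neighbours ADAMTS8 on chromosome 14 in the RefSeq annotation, ranged only from 39 to 76.6, with 0.00 for CEE and 0.14 for tibolone. ADAMTS5 likewise neighbours ADAMTS1, on chromosome 3, and its 4 probe sets gave -0.49 to -0.04 with CEE+MPA, where the 2 of ADAMTS1 gave -1.14 and -1.09. ADAMTS7, which cuts cartilage oligomeric matrix protein, gave 0.41 ± 0.22 with CEE (adjusted p = 0.456). ADAMTS13, which cuts von Willebrand factor, and ADAMTS18 had differences of 0.31 ± 0.25 and 0.54 ± 0.46 between CEE+MPA and CEE (adjusted p = 0.8 and 0.815), and ADAMTS18 was -0.74 ± 0.46 with tibolone against CEE+MPA (adjusted p = 0.332).

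No MMP gene passed in any comparison, with 13 of 22 tested. MMP7, or matrilysin, is made by glandular epithelium, and 2 of its 4 tested probe sets varied widely. The probe set with the highest mean read 259, 924, 1312 and 1082 in controls, 1694, 2869.7, 1082 and 4096 with CEE, 1084, 1342, 1659 and 598 with CEE+MPA and 1053, 585, 1242 and 2489 with tibolone. CEE replicates 1, 2 and 4 lay above every control, but CEE replicate 3 lay among them, and the fold change with CEE was 1.47 ± 0.53 (limma, adjusted p = 0.288). Without control replicate 1, the lowest of all arrays, it was 0.968 (adjusted p = 0.544), and with the skeletal muscle list mean as covariate 0.852 (adjusted p = 0.800). The other varying probe set gave 1.46 ± 0.63 (adjusted p = 0.36), while the remaining 2 stayed within 415 to 682 and 81.1 to 155 over all 16 arrays, with -0.07 and 0.16 for CEE. The probe sets of MMP7 thus disagreed.

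The gelatinase MMP2, made by stromal cells, read 4231, 4045, 3636 and 2523 in controls, 2508, 2089, 2042 and 2399 with CEE, 2220.4, 1626, 2146 and 3699 with CEE+MPA and 2134, 3240.1, 3780.4 and 2603 with tibolone. Every CEE array was below every control, and with CEE+MPA 3 of 4 were, replicate 4 being the exception. Its fold changes of -0.65 ± 0.24 and -0.61 ± 0.24 did not pass (limma, adjusted p = 0.293 and 0.13). MMP14, a membrane MMP that activates proMMP2, read 218, 191, 195 and 181 in controls, 149, 156, 161 and 118 with CEE, 168, 161, 174 and 249.5 with CEE+MPA and 186, 229, 207 and 182 with tibolone. All CEE arrays lay below all arrays of the other 3 groups, though the highest with CEE and the lowest with CEE+MPA were nearly equal, with -0.40 ± 0.15 against control (adjusted p = 0.296), and CEE+MPA and tibolone exceeded CEE by 0.32 ± 0.15 and 0.43 ± 0.15 (adjusted p = 0.631 and 0.291). For the second MMP14 probe set the CEE and control arrays overlapped (-0.22 ± 0.17).

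Stromelysin MMP3, which cuts many matrix proteins and activates other MMPs, had the largest spread within groups of all members (SD 1.27 on the log2 scale). It read 73.6, 71.3, 159.9 and 196 in controls, 81, 934, 91.8 and 266 with CEE, 452, 83.3, 806 and 418 with CEE+MPA and 184, 1197, 696 and 141 with tibolone. All 3 treated groups held animals above every control together with animals within the control range. The fold changes of 0.82 ± 0.79, 1.46 ± 0.79 and 1.63 ± 0.79 for CEE, CEE+MPA and tibolone did not pass (limma, adjusted p = 0.716, 0.278 and 0.913). The median within-group SD was 0.37 over the 48 members and 0.27 over all tested genes.

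MMP9 and MMP12, the latter the macrophage elastase, were high in 1 animal. MMP9 read 72.5, 125, 108 and 145 in controls, 45.7, 85.4, 67.6 and 40.1 with CEE, 79.7, 111, 92 and 40.4 with CEE+MPA and 79.1, 159.8, 1163 and 77.3 with tibolone, and tibolone replicate 3 stood far above the other 15 arrays. MMP12, not tested because a single array passed the filter, read 1.79, 28.2, 991 and 5.51 with tibolone and between 8.45 and 43.9 in the other groups, with the high value again in tibolone replicate 3. ADAM19, a membrane protease, was highest in the same animal. It read 86.5, 115, 77.3 and 131 in controls, 61.6, 73.3, 67.8 and 59.9 with CEE, 91.3, 61.8, 78.6 and 54.8 with CEE+MPA and 64.3, 101, 472 and 74.6 with tibolone. That array also had the highest macrophage list mean of the 16 (0.718, where the others ranged from -0.610 to 0.592), the highest adipocyte list mean (1.04, where the next was 0.788) and a skeletal muscle mean of 1.76, and their part in these values was not tested. For MMP9 the difference between tibolone and CEE was 1.49 ± 0.59 and did not pass (limma, adjusted p = 0.35).

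**Figure D4:**
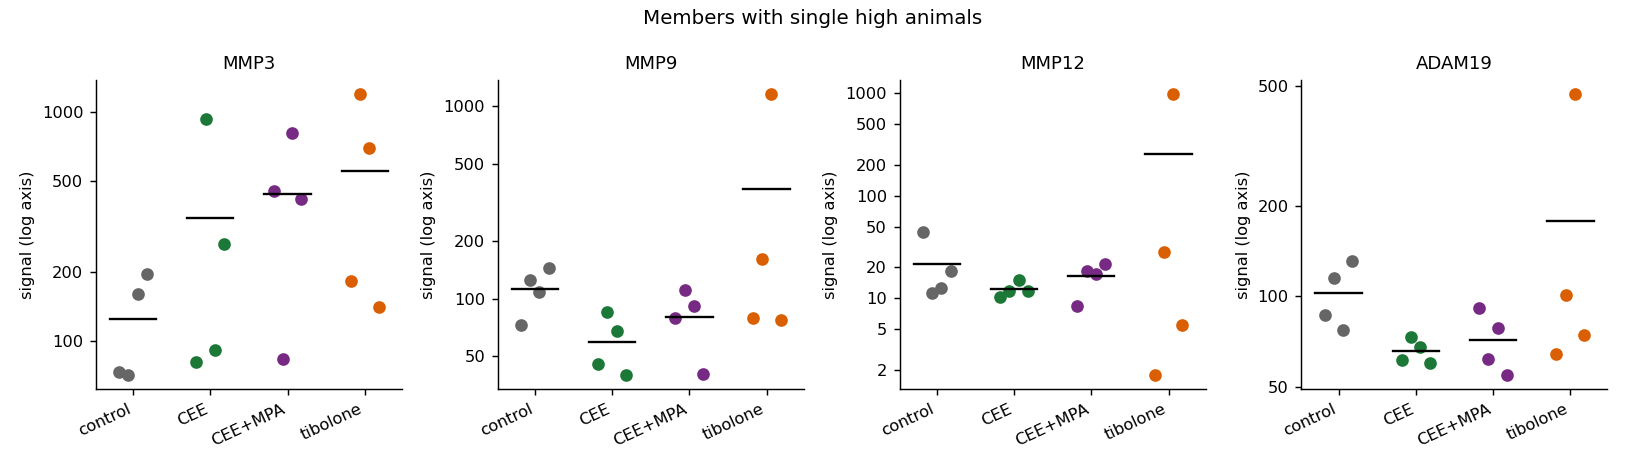
Signal (log axis) by animal for MMP3, MMP9, MMP12 and ADAM19, with lines at group means. The highest point in the MMP9, MMP12 and ADAM19 panels is tibolone replicate 3, while MMP3 has high animals in all 3 treated groups.

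The remaining MMPs differed little or varied within groups. MMP19, found in stroma and vessels, read 914, 947, 523 and 842 in controls, 1027, 509, 404 and 324 with CEE, 442, 269, 376 and 459 with CEE+MPA and 870.5, 1959, 854 and 294 with tibolone. All CEE+MPA arrays lay below all controls (-1.02 ± 0.44, limma, adjusted p = 0.171), but its second probe set gave -0.15 ± 0.32. MMP11, or stromelysin-3, and MMP28, or epilysin, gave -0.51 ± 0.30 and -0.52 ± 0.23 with CEE+MPA (adjusted p = 0.326 and 0.187), and every tibolone array exceeded every CEE+MPA array for both (0.68 ± 0.30 and 0.69 ± 0.23, adjusted p = 0.176 and 0.086). Membrane MMPs MMP15, MMP24 and MMP25 gave 0.01, -0.36 and -0.01 with CEE+MPA, and MMP25 gave 0.39 ± 0.15 with tibolone (adjusted p = 0.901). MMP23, a membrane-anchored MMP, read 412, 301, 134 and 75.3 in controls, 64.5, 108, 96.7 and 71.3 with CEE, 86.2, 59.9, 74.4 and 59.3 with CEE+MPA and 141, 217, 191 and 32.6 with tibolone. Control replicates 1 and 2 stood above all other arrays, and the fold changes of -1.06 ± 0.47 and -1.29 ± 0.47 with CEE and CEE+MPA did not pass (adjusted p = 0.375 and 0.108). MMP24 was -0.42 ± 0.18 with CEE+MPA against CEE (adjusted p = 0.602). MMP16, another membrane MMP, was 0.61 ± 0.28 with CEE against control and -0.47 ± 0.28 with tibolone against CEE (adjusted p = 0.386 and 0.511). Its 3 probe sets differed in sign in both comparisons, from -0.01 to 0.61 and from -0.47 to 0.03.

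The other 8 untested MMP genes, among them the collagenases MMP1, MMP8 and MMP13, had no signal above the filter on any array. The highest was 21.98 for MMP1, 35.7 for MMP8 and 15.1 for MMP13. In the RefSeq annotation MMP7, MMP20, MMP27, MMP8, MMP10, MMP1, MMP3, MMP12 and MMP13 follow each other on chromosome 14. Of this run MMP7 and MMP3 passed the filter, MMP12 exceeded it on 1 array, and the others did not exceed it. In all, 18 of the 20 untested member genes had every signal at or below the filter, MMP12 and ADAM22 being the exceptions. Besides the MMPs named above these were MMP21, MMP26, ADAM20, ADAM21, ADAMTS6, ADAMTS14, ADAMTS17, ADAMTS19, ADAMTS20, ADAMTSL5, CTSE and CTSG, and ADAM22 reached 65.6 at most.

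No ADAM gene passed, with 6 of 9 tested. ADAM12, known from placenta, muscle and tumour stroma, had 3 probe sets, of which the one with the highest mean read 122, 39.2, 82.5 and 221 in controls, 409.7, 540.4, 339 and 81.8 with CEE, 284, 299.7, 197 and 125 with CEE+MPA and 163, 70.4, 132 and 219 with tibolone. CEE replicates 1, 2 and 3 lay above every control and CEE replicate 4 did not. The fold change with CEE was 1.38 ± 0.51 for that probe set and 1.21 ± 0.46 and 0.77 ± 0.34 for the others (limma, adjusted p = 0.298, 0.309 and 0.377). With CEE+MPA the 3 gave 0.999, 1.22 and 0.85, and for tibolone against CEE+MPA -0.60, -1.51 and -1.03 (adjusted p = 0.491, 0.0636 and 0.0791). All 3 thus had the same sign in each of these comparisons, and for the 2 of lower mean every tibolone array lay below every CEE+MPA array. The 3 probe sets differed in sign for tibolone against control (-0.29 to 0.40) and for CEE+MPA against CEE (-0.38 to 0.08).

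The sheddases ADAM10, which releases Notch and EGF receptor ligands, and ADAM9 had negative fold changes with CEE+MPA and did not pass. ADAM9 read 515 to 709 in controls and 351 to 514 with CEE+MPA, where the highest nearly reached the lowest control (-0.50 ± 0.18, limma, adjusted p = 0.0998). ADAM10 gave -0.35 ± 0.17 on its brightest probe set, and -0.57 ± 0.17 and -0.54 ± 0.21 on the others (adjusted p = 0.234, 0.0541 and 0.131). ADAM15 was 0.16 ± 0.20 (adjusted p = 0.67), with its second probe set at -0.42. ADAM18, a gene known from testis, had 1 probe set with signals of 526 to 5442 and another at 1.26 to 15.7 over the 16 arrays. The symbol of the brighter ADAM18 probe set rests on the annotation alone, and its difference of -0.65 ± 0.59 between tibolone and CEE+MPA did not pass (adjusted p = 0.516).

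Of 11 tested cathepsin genes, CTSD fell with CEE+MPA. CTSD, the lysosomal aspartic protease cathepsin D, is a known estrogen-induced gene of breast cancer cells. Its signal was 4996, 6365, 3416 and 2607 in controls, 2059.9, 2396, 3025 and 2194 with CEE, 1732, 2306, 2466 and 2037 with CEE+MPA and 3784, 4379, 3239 and 3069 with tibolone. The CEE+MPA arrays lay below every control, CEE replicates 1, 2 and 4 did as well, and every tibolone array exceeded every CEE and CEE+MPA array. The fold change was -0.95 ± 0.23 with CEE+MPA (limma, adjusted p = 0.0293) and -0.77 ± 0.23 with CEE, which did not pass (adjusted p = 0.23).

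The second CTSD probe set read 2789, 3410.1, 2468 and 1654 in controls, 1350.5, 1127, 1521 and 1176 with CEE, 1055, 1215, 1202 and 1244 with CEE+MPA and 1964, 2469, 1682 and 1949 with tibolone. Here all CEE and all CEE+MPA arrays lay below all controls. Its fold change with CEE+MPA was -1.08 ± 0.19 (limma, adjusted p = 0.00721), with CEE it was -0.95 ± 0.19 (adjusted p = 0.0667), and for tibolone against CEE+MPA 0.75 ± 0.19 (adjusted p = 0.034). On the first probe set the last difference was 0.75 ± 0.23 and did not pass (adjusted p = 0.065). The first probe set missed the threshold with CEE+MPA without any 1 of 5 arrays, which were control replicates 1 and 2 and CEE+MPA replicates 1, 2 and 3 (highest adjusted p = 0.1). Within the low and high spike-in sets the difference was -0.66 ± 0.23 and -1.24 ± 0.23 (adjusted p = 0.416 and 0.0206).

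The cysteine cathepsins did not pass. CTSL, or cathepsin L, read 1249, 1374, 1391 and 1617 in controls, 1226, 966, 750.2 and 599 with CEE, 881, 621, 643 and 1049 with CEE+MPA and 846, 1353, 1468 and 814 with tibolone. Every CEE and CEE+MPA array was below every control, with -0.70 ± 0.24 and -0.83 ± 0.24 (limma, adjusted p = 0.275 and 0.0536), and tibolone gave -0.37 ± 0.24 (adjusted p = 0.913). CTSK, the collagen-cutting cathepsin of osteoclasts and fibroblasts, read 4683, 5139, 5455 and 5108 in controls, 3410.3, 3911, 2708 and 3674 with CEE, 4465, 2224, 3279.7 and 6795 with CEE+MPA and 3154, 4923, 4425 and 3547 with tibolone. Every CEE array was below every control (-0.58 ± 0.26, adjusted p = 0.375), whereas CEE+MPA replicate 4 was the highest of all 16. CTSS, the cathepsin of antigen-presenting cells, whose gene neighbours CTSK on chromosome 1, gave -0.14 ± 0.18 with CEE and 0.05 ± 0.18 with CEE+MPA. Its 4 tested probe sets gave -0.40 to -0.10 with CEE and differed in sign with CEE+MPA, from -0.26 to 0.22.

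CTSH gave negative fold changes on both probe sets with CEE+MPA (-0.62 ± 0.27 and -0.98 ± 0.30, limma, adjusted p = 0.174 and 0.0597), and its highest signals came from tibolone replicate 3 (3275 and 1311). CTSV, the cathepsin L2 of epithelium, read 614, 562, 367 and 546 in controls, 593, 744, 508 and 656 with CEE, 300.2, 504, 527 and 217 with CEE+MPA and 635, 649, 537 and 961 with tibolone. Tibolone arrays lay above all CEE+MPA arrays (0.87 ± 0.26, adjusted p = 0.0569), and CEE+MPA differed from CEE by -0.74 ± 0.26 (adjusted p = 0.488). CTSZ, or cathepsin X, was higher with tibolone than in the other groups by 0.51 ± 0.23, 0.70 ± 0.23 and 0.68 ± 0.23 (against control, CEE and CEE+MPA; adjusted p = 0.913, 0.289 and 0.0896), with overlapping arrays in each. CTSO had every tibolone array below every CEE array (-0.39 ± 0.16, adjusted p = 0.369). CTSA, the protective protein of lysosomal hydrolases, gave -0.40 ± 0.19 with CEE+MPA (adjusted p = 0.207), CTSF gave -0.28 ± 0.16 (adjusted p = 0.306) and CTSW, the cathepsin of cytotoxic lymphocytes, gave -0.20 ± 0.34 (adjusted p = 0.77). CTSG, of neutrophils and mast cells, had no signal above 46.5 and was not tested.

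Agreement between probe sets of a gene limits these directions. Of the 23 member genes with at least 2 tested probe sets, all of a gene's fold changes had the same sign for 16 with CEE, 18 with CEE+MPA and 12 with tibolone against control. In the comparison of tibolone with CEE+MPA it was 15. Counted as probe sets, 9 of 86 fell with CEE+MPA against control (4.38% of all probe sets) and 0 rose (1.95%), while 8 of 86 were higher with tibolone than with CEE+MPA (3.78% of all probe sets) and 0 lower (2.56%).

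Partner genes in 3 lists, drawn up like the marker lists with earlier results of these data known, were read beside the proteases. In a list of plasminogen system genes, serine proteases, serpins and matrix inhibitors, 21 of 29 were tested. With CEE+MPA against control 4 fell (HTRA1, SERPINA3, SERPINE2 and PCOLCE2) and 0 rose, where 4.95% of all genes fell and 2.74% rose. HTRA1, a secreted serine protease that degrades fibronectin, read 6077, 5480.0, 4553 and 4147 in controls, 2459.5, 2660.1, 2874 and 2077 with CEE, 1827, 1743, 1882 and 1519.9 with CEE+MPA and 3357, 3772, 3631 and 3109.8 with tibolone. The groups did not overlap in any pair, with controls highest, then tibolone, CEE and CEE+MPA, and HTRA1 also fell with CEE alone (-0.998 ± 0.15, limma, adjusted p = 0.0161). It fell by 1.52 on the log2 scale with CEE+MPA (adjusted p = 0.000342). SERPINA3, or antichymotrypsin, gave -1.73 ± 0.36 (adjusted p = 0.0153), SERPINE2, an inhibitor of thrombin and plasminogen activators, -0.99 ± 0.27 (adjusted p = 0.0413), and PCOLCE2, an enhancer of procollagen processing, -1.43 ± 0.37 (adjusted p = 0.0338). In the same list HTRA1, SERPINA3 and SPOCK1 were higher with tibolone than with CEE+MPA, by 0.99, 1.69 and 1.52 (limma, adjusted p = 0.00435, 0.021 and 0.0346). Of all genes, 3.98% were higher and 3.37% lower in this comparison.

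Of cathepsin partners, such as cystatins and lysosomal membrane proteins, 9 of 13 were tested. With CEE+MPA against control 4.95% of all genes fell and 2.74% rose. For tibolone against CEE+MPA the shares were 3.98% higher and 3.37% lower. A single called gene in a list of this size is thus no result about the list. CST7, a cystatin that blocks cysteine cathepsins in immune cells, fell with CEE+MPA by 0.89 (limma, adjusted p = 0.0164). With tibolone against CEE+MPA, CST7 was higher by 0.68 (adjusted p = 0.047) and LAMP2, a lysosomal membrane protein, was lower (-0.67 ± 0.18, adjusted p = 0.0403). Of matrix substrates, 12 of 20 were tested, and FBLN1, fibulin 1, fell with CEE+MPA (-2.52 ± 0.25, adjusted p = 0.000342) and was higher with tibolone than with CEE+MPA (2.16 ± 0.25, adjusted p = 0.00143). The other 11 tested substrates did not pass in either of these comparisons. Median fold changes with CEE+MPA were -0.43, 0.10 and -0.36 for the 3 lists.

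Markers of stromal and contractile cells moved with the members. The counts below are of genes called with CEE+MPA against control, where 4.95% of all genes fell and 2.74% rose. A single called gene in a list is thus no result about its cell type. The smooth muscle and myoepithelium list, tested for 7 of 10 genes (not for ACTA2, DES or MYLK), had 7 of 7 genes lower with CEE+MPA against control, and its list means ran from -1.43 to -0.47 with CEE+MPA, 0.22 to 0.66 in controls, -0.15 to 0.23 with CEE and -0.15 to 0.72 with tibolone. The fibroblast list (11 of 12 genes tested, not PDGFRA) had 4 of 11 lower with CEE+MPA, with list means of -0.60 to -0.09 against 0.18 to 0.58 in controls, -0.27 to 0.05 with CEE and -0.04 to 0.28 with tibolone. FBLN1 is in this list as well. In the basal epithelium list (4 of 7 tested, not KRT5, KRT14 or KRT17) 2 of 4 genes fell. Its list means were -1.01 to -0.28 with CEE+MPA, 0.03 to 0.65 in controls, -0.26 to 0.37 with CEE and -0.11 to 0.56 with tibolone. In the endothelial list 1 of 8 genes fell. Its list means were -0.28 to -0.23 with CEE+MPA, 0.05 to 0.49 in controls, -0.22 to -0.04 with CEE and -0.25 to 0.43 with tibolone. In the adipocyte list 2 of 6 fell, with list means of -1.10 to -0.18 with CEE+MPA and -0.14 to 0.79 in controls. With CEE and tibolone the adipocyte list means were -0.93 to 0.18 and -0.69 to 1.04. Macrophage markers (12 of 14 tested, not CD163 or FCER1G) had 1 of 12 lower. Their list means were -0.28 to 0.05 with CEE+MPA, 0.07 to 0.59 in controls, -0.61 to 0.03 with CEE and -0.38 to 0.72 with tibolone. The average was -0.30 with CEE and -0.15 with CEE+MPA, so the low macrophage level was not particular to CEE+MPA. Neutrophil and mast cell markers (6 of 12 tested) had 0 of 6 called, though all 6 fold changes were below 0. Their list means were -0.76 to -0.06 with CEE+MPA and 0.04 to 1.02 in controls, without overlap. With CEE and tibolone they were -0.57 to 0.11 and -0.68 to 0.98, and the averages of CEE and CEE+MPA were close (-0.32 and -0.34). T and NK cell markers had 1 of 6 higher, with list means of -0.37 to 0.43 for CEE+MPA and -0.19 to 0.24 in controls. The part of these cell types in the differences of ADAMTSL4, TIMP3, TIMP2, ADAMTS1 and CTSD was not tested.

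Tibolone against CEE+MPA gave the opposite order, with 6 of 7 smooth muscle and myoepithelium genes and 3 of 11 fibroblast genes higher (3.98% of all genes). These markers also moved with the 4 members called in that comparison, and their part in it was not tested. Luminal epithelium list means were -0.27 to -0.09 in controls and 0.04 to 0.31 with CEE. With CEE 0 of 9 genes were called against control (0.0383% of all genes higher and 0.0191% lower). With CEE+MPA the list means were -0.19 to 0.12, and 2 of 9 genes were higher than in controls (2.74% of all genes). Without the 4 arrays of high skeletal muscle signal, 3 members fell with CEE+MPA against control (ADAMTSL4, TIMP3 and ADAMTS1). In that fit 980 of all tested probe sets passed, where 1819 passed with all arrays. Between tibolone and CEE+MPA, 0 members and 0 of all tested probe sets passed, on 2 remaining tibolone arrays.

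**Figure D5:**
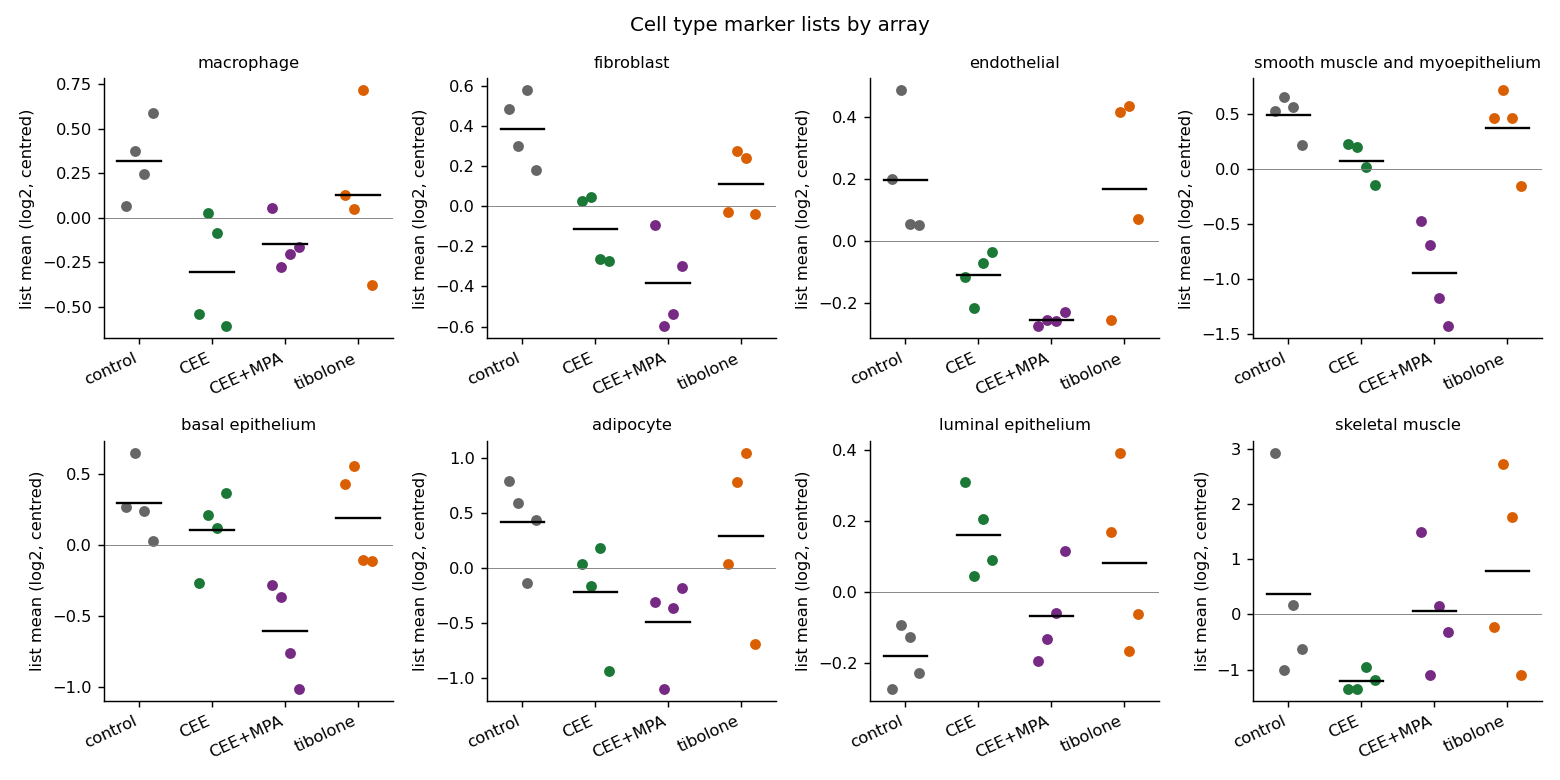
Mean of each cell type marker list by array (log2 scale, after subtracting the gene mean of all arrays), with 1 point for each animal and lines at group means. The 4 CEE+MPA points of the smooth muscle and myoepithelium list lie between -1.43 and -0.47, below all other arrays, and 4 arrays stand above 1 for skeletal muscle.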

How the data were processed

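Total RNA from whole mammary tissue was hybridized to 1 Affymetrix rhesus macaque array per animal, 16 in all. The intensity values were deposited by the authors as linear signals, and the deposited values share the same 2% trimmed mean on every array, as computed from them. Per the submitters' processing notes, GCOS and Affymetrix Expression Console were used, with version not given in the sources used here. Signals were taken as log2(signal + 16). Probe sets above 60.2 on at least 4 arrays, 28716 of 52865, were fitted with limma 3.58.1 in R 4.3.3 as 4 group means with 6 comparisons, and p-values were adjusted by Benjamini-Hochberg within each comparison over all of them. Affymetrix controls (99) were left out, and 361 probe sets with several symbols named no gene. For each gene the tested probe set of highest mean stood in, and of 68 member symbols 64 are in the RefSeq gene table used for neighbours.

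Named genes were those past the threshold, the 3 with the smallest p in each direction where fewer passed, and a fixed panel. The members, as gene families, and the partner and marker lists were chosen with earlier results of these data known, though the symbol rule itself uses no value. Each array was called a replicate from the labels, which give 1 animal each, and the number of arrays limits precision. Alternatives covered normalization, filter, offset, weights, covariates, a block and each array left out. No sequences were used here. Figures were drawn with matplotlib 3.10.9.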

Additional observations from a re-analysis of the deposited data

Results flagged for a closer look

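In 184 groups of 4 animals (46 genes by 4 treatments, log2 scale), 7 had 1 animal far from the other 3 by Dixon's test at its 95% critical value. Chance alone marks about 1 group in 20 by this test. MMP14 read 249.5 in CEE+MPA replicate 4, where the other 3 read 161 to 174. ADAM18 read 756 in the same animal, against 2364 to 2951. ADAMTS4 read 318 in tibolone replicate 2, against 73.3 to 95.1. MMP28 read 77.2 in CEE+MPA replicate 1, against 74.8 to 75.2, a difference of little size. The other 3 lay at signals too low to be tested, with MMP1 at 0.996 in control replicate 3 (1.92 to 1.95 in the others), MMP13 at 13.0 in control replicate 2 (1.71 to 2.36) and CTSG at 24.4 in tibolone replicate 1 (35.2 to 36.2).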

How the results depend on the processing

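No paired analysis was possible because the replicate numbers follow accession order and pair no animals. Beside each count of members stands, in brackets, the count over all tested probe sets, which also moved, so a change in the first alone is no result about the members. With CEE against control 0 members were called (21 of all probe sets), and 1 (ADAMTS8, higher) at a threshold of 0.10 (99), with only the groups compared (66) or with array weights (140). With CEE+MPA against control 5 member genes were called and 9 member probe sets (1819 of all probe sets). The count of genes became 9 at 0.10 (3714), 3 with quantile normalization (1323), 2 with no filter (984), 11 with array weights (3729), 8 with the 3'/5' ratio as covariate (2400), 8 with a spike-in block (2373) and 3 without the arrays of high skeletal muscle (980). It was 0 within the low spike-in set, where 0 of all probe sets were called by limma, and 4 within the high set (1375), namely ADAMTS10, ADAMTSL4, CTSD and TIMP3. With tibolone against CEE+MPA 4 member genes were called and 8 member probe sets (1820 of all probe sets). The count of genes became 11 at 0.10 (3750), 2 with quantile normalization (1301), 1 with median centring (2131), 1 with no filter (799), 7 with a stricter filter (1802), 0 with only the groups compared (215), 7 with the 3'/5' ratio (2104), 1 with the skeletal muscle covariate (792), 1 with the spike-in block (735) and 0 without the arrays of high skeletal muscle (0). Leaving out 1 array gave 0 to 8 members in both comparisons, while the calls over all probe sets ran from 348 to 2316 with CEE+MPA against control and from 209 to 3333 with tibolone against CEE+MPA. The threshold of 0.10 and the removal of high skeletal muscle arrays were chosen after seeing the data. ADAMTS8 with CEE+MPA against control was -0.35 within the high spike-in set, and ADAMTS18 with tibolone against CEE+MPA was 0.073 without the arrays of high skeletal muscle, both with the sign turned. The cause was not tested.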
